A study of Mus musculus with 21 samples.

Results

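Il2ra-positive cells are activated OT1 CD8 T cells in which at least 2 unique molecular identifiers (UMIs, each marking 1 captured RNA molecule) of Il2ra were counted, in the library sampled on day 3 of culture without added cytokine. They numbered 752 of the 4456 cells kept in that library, and the whole series held 106456 kept cells. A further 1197 cells had 1 Il2ra UMI and 2507 had 0. Il2ra-positive cells were paired 1 to 1 with cells of the same library with 0 Il2ra UMIs and about as many UMIs outside Il2ra. This gave 723 pairs, and 29 positive cells had no partner. A cell with 0 Il2ra UMIs may still hold Il2ra RNA that was not captured. The zero class therefore cannot be taken as a class without Il2ra expression. The cells were chosen by their Il2ra UMI count, so Il2ra was left out of every comparison and its own levels are a description.

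OT1 cells carry a transgenic T cell receptor that recognises a peptide of ovalbumin. Naive OT1 CD8 cells were stimulated on day 0 with beads that carry antibodies to CD3 and CD28, which stand in for antigen and costimulation, and this library was grown for 3 days with no exogenous cytokine. The other 6 day 3 libraries had the same cells and beads plus IL-2, IL-2v (an IL-2 whose label names it a mutant) or IL-15, each at 5 or 50 IU/mL. Each condition had 1 library, and an unstimulated naive library and a day 5 library without cytokine were used beside them. The series also held day 5 and day 10 libraries with the same cytokines and doses, which enter where signs are counted over other libraries. The treatment labels of the libraries titled 50 IU/mL IL-2 and 50 IU/mL IL-15 name other interleukins, and the titles were followed. The extraction label speaks of sorted cells from tumours while the growth label speaks of culture, and the labels name no animals, ages or donors.

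Il2ra encodes CD25, the alpha chain of the IL-2 receptor. Together with the beta chain (Il2rb) and the common gamma chain (Il2rg) it forms the receptor of high affinity, which signals through JAK1 and JAK3 to the transcription factor STAT5. CD25 is absent from most resting CD8 T cells, is induced by T cell receptor signals through NF-kB and other factors, and is raised further by IL-2 itself, which activated T cells can also secrete.

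The mouse Il2ra gene lies on chromosome 2 from 11642807 to 11693193 on the plus strand (GRCm38, GENCODE). The stretch just before its start site is shown because it adjoins the gene that defined the cells, and sequence farther away or within the gene was not searched. It is chr2:11642542-11642791, plus strand, from RefSeq GRCm38.p6, and capitals mark 2 overlapping matches to the NF-kB motif.

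Il2ra: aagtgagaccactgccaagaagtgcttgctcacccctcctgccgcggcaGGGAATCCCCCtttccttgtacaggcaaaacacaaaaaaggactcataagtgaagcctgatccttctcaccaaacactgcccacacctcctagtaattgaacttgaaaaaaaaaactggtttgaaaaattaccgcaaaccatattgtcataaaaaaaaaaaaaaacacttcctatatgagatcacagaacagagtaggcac

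Matches to the NF-kB motif, searched on both strands, were present in the 250 bases before 3.75% of 27025 mouse start sites. The STAT motif TTCNNNGAA had 0 matches in this Il2ra window and was present in 7.18% of the same windows. A match is a description of letters and was not tested as a binding site.

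Among the Il2ra-positive cells, 444 had 2 Il2ra UMIs, 170 had 3 and 138 had 4 or more, with a maximum of 19. Their share was 16.9% of the kept cells (exact 95% binomial interval 15.8% to 18.01%, counting error only). In the naive library, which serves as the background, 14 of 4777 cells (0.293%, 0.160% to 0.491%) had at least 2 Il2ra UMIs. Since a deeper cell has more chances to show 2 UMIs, every cell was also thinned at random to 2000 UMIs, which left 203 of 4244 cells (4.78%, 4.16% to 5.47%) without cytokine and 0.201% (0.0921% to 0.382%) in the naive library.

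Of the 7 day 3 libraries, the one without cytokine held the lowest thinned share. The next was 7.18% (6.45% to 7.98%) with 5 IU/mL IL-15, and the highest was 47.6% (45.9% to 49.3%) with 50 IU/mL IL-2. By day 5 without cytokine the thinned share was 0.416% (0.270% to 0.614%), with 110 of 6112 cells at 2 or more UMIs before thinning. The Il2ra level of the whole library followed the same order, at 5.63 CPM (UMIs of the gene scaled to a common library total) in naive cells, 149 CPM on day 3 without cytokine and 34.0 CPM on day 5 without cytokine. Because the intervals cover counting error within 1 library per condition, differences between conditions have no replicate check.

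**Figure D1:**
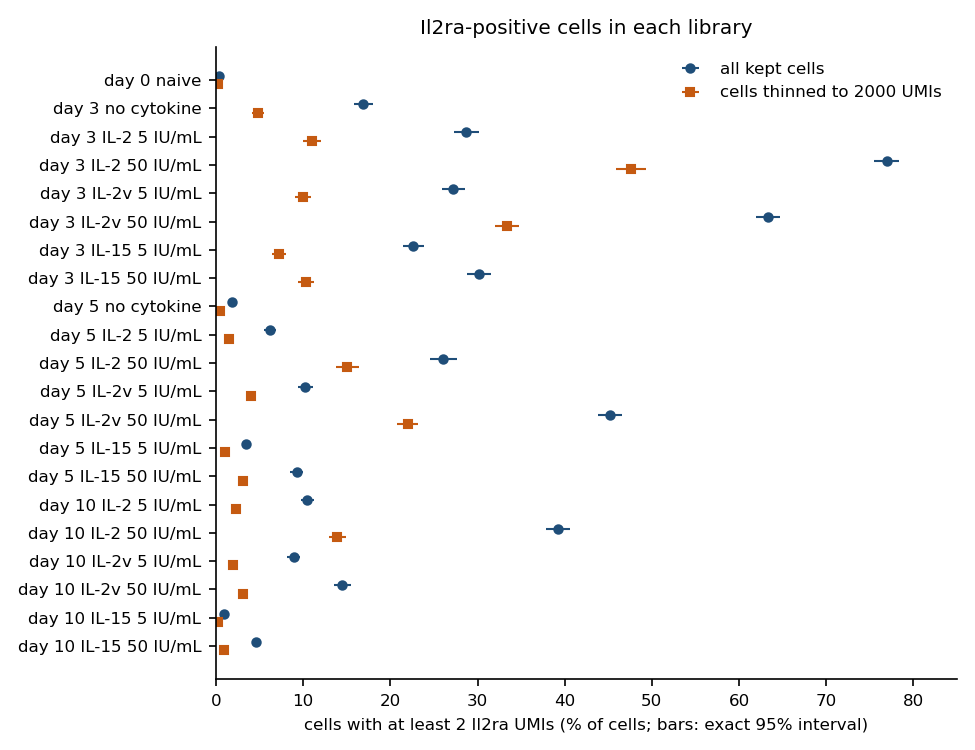
Share of cells with at least 2 Il2ra UMIs in each library (%, horizontal axis), for all kept cells (circles) and after thinning each cell to 2000 UMIs (squares), with exact 95% binomial intervals. On day 3 the library without cytokine had the lowest share of the 7, at 16.9% of all cells and 4.78% after thinning.

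Il2ra-positive cells were T cells by their markers. At least 1 Cd3d UMI was present in 99.2% of the matched positive cells and at least 1 Cd8b1 UMI in 87.7%. Of the defining markers of other lineages, Ms4a1, Lyz2, Adgre1, Csf1r, Ncr1, Klrb1c and the 3 haemoglobin genes measured were at 0 CPM in both classes. Foxp3, which marks regulatory T cells that carry CD25 at rest, had a UMI in 1 of 723 positive cells. Cd4 had one in 8 of 723 positive and 7 of 723 zero cells. Zbtb7b, of the same marker list, had one in 60 of 723 positive and 35 of 723 zero cells, or 26 and 12 of 715 after thinning. Cd79b was at 15.5 CPM in positive and 15.9 CPM in zero cells, and Itgam at 3.65 and 0.231 CPM. Cd68 had a UMI in 16 of 723 positive and 8 of 723 zero cells, Fcer1g in 4 and 1, and Cst3 in 375 and 332. Gata3, of the NK and innate lymphoid list, had one in 231 and 203, while Tyrobp had one in 2 of each class and Il1rl1 in 0 and 2. The summed level of the 6 B cell markers was 641 CPM in positive and 633 CPM in zero cells, nearly all of it Ighm, which had a UMI in 90.7% of positive and 91.3% of zero cells, and that of the 9 myeloid markers was 149 and 117 CPM, most of it Cst3. Another count left out the 70 cells, 23 of them positive, with UMIs of at least 2 genes of the B cell list (Ighm apart), of the myeloid list or of the erythroid list, or with Cd4 and neither Cd8a nor Cd8b1. Without them the counts of genes given further on were 182 higher and 27 lower.

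Matching made the UMIs outside Il2ra alike, with a median of 5684 per positive cell and 5682 per zero cell, where all 752 positive cells had 5788 and all 2507 zero cells 4150. At this equal depth the positive cells still had more genes detected, a median of 1996 against 1892. Mitochondrial transcripts made up a median of 4.97% of UMIs in positive and 4.47% in zero cells, and ribosomal protein transcripts 32.3% and 35.05%. Gm42418, a noncoding transcript that overlaps the ribosomal RNA locus, had a median of 13 UMIs per positive cell and 9 per zero cell. These measures move with the class, and their part in the gene differences was not tested beyond the matched counts given next. A UMI of the cycle genes Mki67 or Top2a was present in 70.0% of positive cells (66.5% to 73.3%) and 66.4% of zero cells (62.8% to 69.8%), or 58.9% and 56.4% after thinning, and those intervals overlap.

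For each class the UMIs of the 723 cells were summed and scaled to CPM, and differences were taken as log2(CPM + 1), which understates the change of low genes. Of 5635 genes with at least 20 CPM in either class, 173 (3.07%) were at least 1.5-fold higher in Il2ra-positive cells and 26 (0.461%) at least 1.5-fold lower. With 1 library there is no test, so the 95% intervals of the ratios cover counting error only. The median gene differed by 0.08 on the log2 scale, while a TMM scaling (trimmed means over genes), which moves that median to -0.05, gave 73 higher and 78 lower. Cells matched on genes per cell gave 120 higher and 29 lower, and cells matched on UMIs and on their Gm42418 share gave 134 and 30.

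**Figure D2:**
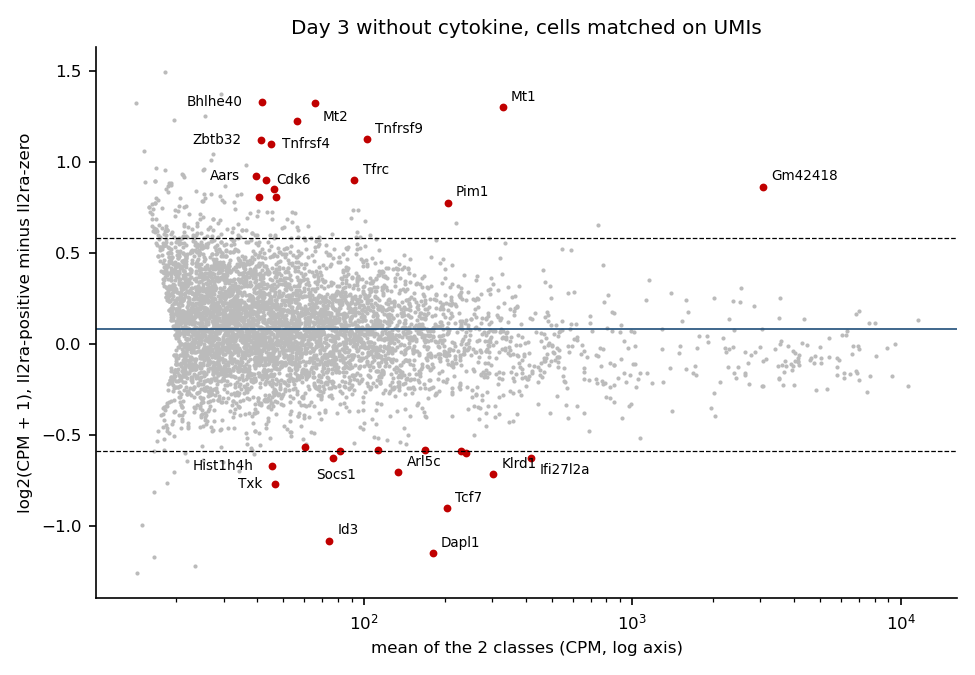
Difference between Il2ra-positive and matched Il2ra-zero cells of day 3 without cytokine, log2(CPM + 1), against the mean of both classes in CPM (log axis), 1 point per gene. Red points are the 30 named genes, dashed lines mark 1.5-fold and the blue line the median of all genes, 0.08, while Mt1, Bhlhe40 and Tnfrsf9 lie above 1.1 and Dapl1 and Id3 below -1.

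The same split was then made in the other 6 day 3 libraries, whose cells the selection did not use, and tested with edgeR over their 12 class sums with the library as a block. There 1138 of 5857 genes (19.4%) were higher and 1221 (20.8%) lower in Il2ra-positive cells at an adjusted p under 0.05. With library totals in place of TMM the counts were 2144 higher and 737 lower. The p-values concern a within-library difference over 6 unlike cultures, not replicates of 1 condition. Of the 173 genes higher without cytokine, 125 (72.3% of them and 10.98% of the 1138) were also called higher there. Of the 26 lower genes 18 (69.2% of them and 1.47% of the 1221) were called lower, and 0 genes were called in the opposite direction. Only 168 of the 173 and 19 of the 26 were among the genes tested there, so 43 and 1 were tested without being called.

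Counts of list members are to be read against the shares of all genes given above, 3.07% and 0.461% without cytokine and 19.4% and 20.8% in the other 6 libraries. Differences in those libraries are given as mean ± SD of log2 values (n = 6). The adjusted p-values are from edgeR, which used TMM and drew the spread of each gene toward that of all genes (32.07 prior degrees of freedom). They therefore do not measure the SD printed beside them. All 30 named genes were called in those libraries, and limma on the 6 within-library differences, each weighted alike, called all of them but Asap1.

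Named genes are the 15 highest and 15 lowest of those that reached 50 CPM in either class; genes below that level, such as Cdkn1a (1.495) and Slc7a5 (1.38), can differ more and these are described with their lists. Bhlhe40, a transcriptional repressor linked to T cell activation and cytokine production, was at 60.1 CPM in positive and 23.3 CPM in zero cells, a log2 difference of 1.33 (ratio interval 2.04 to 3.28). Across the other libraries its difference had a lowest value of -0.15, a median of 0.68 and a highest of 0.83, 0.57 ± 0.36 (SD, n = 6, edgeR adjusted p = 1.05e-05). Of the 6 libraries 5 were above 0, and the one below was 50 IU/mL IL-2, with a ratio interval of 0.777 to 1.05 that includes 1. Zbtb32, a zinc finger repressor of lymphocytes, was at 56.9 against 25.6 CPM (1.12), with 0.86 ± 0.11 in the others (SD, n = 6, edgeR adjusted p = 3.66e-14), and no library fell below 0.71. Prdm1, which encodes the effector regulator Blimp-1, was at 36.5 against 14.8 CPM (1.25), and higher in 6 of 6 other libraries with 0.94 ± 0.39.

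Mt1 and Mt2 encode metallothioneins, small proteins that bind zinc and other metals, and lie side by side on chromosome 8. Mt1 was at 468 CPM in positive and 189 CPM in zero cells, a log2 difference of 1.30, and Mt2 at 94.1 and 36.9 CPM, 1.33. Both were higher in 5 of the other 6 libraries, with medians of 0.88 and 0.98, and lower in the library with 50 IU/mL IL-2, by -0.20 and -0.28. With 50 IU/mL IL-2v, 1 of these 5, Mt2 was only at 10.1 and 8.44 CPM, and its ratio interval (0.701 to 2.06) includes 1. In the naive library Mt1 was at 0.487 CPM over all cells. Of the exonic bases of Mt2, 73.5% are shared with Gm45774 on the opposite strand, and whether reads were counted by strand is not given in the sources used here. The window before the Mt2 start site is shown because metallothionein promoters are known for metal response elements. It is chr8:94172368-94172617, plus strand, RefSeq GRCm38.p6, and capitals mark the cores TGCACNC or TGCGCNC on either strand.

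Mt2: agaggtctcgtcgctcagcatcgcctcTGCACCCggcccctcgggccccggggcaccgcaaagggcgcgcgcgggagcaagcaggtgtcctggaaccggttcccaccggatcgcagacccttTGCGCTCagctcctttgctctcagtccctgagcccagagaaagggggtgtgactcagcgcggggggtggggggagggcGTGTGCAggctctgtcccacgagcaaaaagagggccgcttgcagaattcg

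It holds 3 such cores, as do 1.28% of all windows with 3 or more. At least 1 core was present in 21.3% of all windows. Of the 11 higher named genes with a RefSeq window, 6 had a core (Adap1, Hbs1l, Mt1, Mt2, Tfrc and Tnfrsf4). Of the 9 lower ones, 1 had a core (Tcf7). Mt1 and Mt2, for whose promoters the core was chosen, are among the 6. The Mt1 window, chr8:94178839-94179088, held 1 core. Bases after that window were not searched, so this is not a count of all cores near Mt1. The NF-kB motif was present in 0 of the 11 higher and 0 of the 9 lower genes. The STAT motif was present in 1 of 11 (Aars) and 1 of 9 (Igtp). These counts were not tested.

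Receptors of the TNF receptor family that costimulate T cells were split. Tnfrsf9, which encodes 4-1BB, was at 141 CPM in positive and 63.9 CPM in zero cells (1.13), and its difference was above 0 in all of the other 6 libraries, 0.72 ± 0.32 (SD, n = 6, edgeR adjusted p = 3.60e-11). Tnfrsf4, which encodes OX40, was at 61.9 and 28.4 CPM (1.10), with 0.87 ± 0.31 in the others (SD, n = 6, edgeR adjusted p = 9.30e-11). Tnfrsf18 (GITR) was at 165 and 117 CPM (0.49), while Cd27 went the other way, at 236 and 287 CPM (-0.28). Without cytokine, 2 of the 5 members tested passed 1.5-fold upward and 0 downward, with a median of 0.49. In the other libraries 4 were called higher and 1 lower. Over all genes those shares were 3.07% and 0.461% without cytokine and 19.4% and 20.8% in the other libraries.

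Genes known as STAT5 targets had 8 of 14 tested members past 1.5-fold upward and 1 downward, against 3.07% and 0.461% of all genes, with a median of 0.63 against 0.08. Pim1, a kinase that supports survival and growth, was at 259 against 151 CPM (0.78) and above 0 in all of the other 6 libraries, 0.47 ± 0.07 (SD, n = 6, edgeR adjusted p = 2.29e-12). Socs2, an inhibitor of cytokine signals, was at 52.1 against 29.3 CPM (0.81), and Cdk6, a kinase of early cell cycle entry, at 56.4 against 29.7 CPM (0.90). Gzmb, which encodes the killing enzyme granzyme B, was at 910 against 578 CPM (0.65) and higher in 6 of 6 other libraries, 0.44 ± 0.20. Bcl2l1 (0.78), an inhibitor of cell death, Nfil3 (0.71) and Myc (0.60) were also past 1.5-fold, but in cells thinned to 2000 UMIs without matching Bcl2l1 was at 0.32 and Myc at 0.23, and with a pseudocount of 10 CPM Nfil3 was at 0.46, all under 1.5-fold. Socs1, the member that was lower, inhibits JAK kinases and was at 60.1 against 93.2 CPM (-0.63), with -0.30 ± 0.14 in the others (SD, n = 6, edgeR adjusted p = 4.08e-08). In the other 6 libraries 13 of 16 tested members were called higher and 1, Socs1, lower, against 19.4% and 20.8% of all genes. Cish stayed under 20 CPM without cytokine, at 11.9 against 6.69 CPM.

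**Figure D3:**
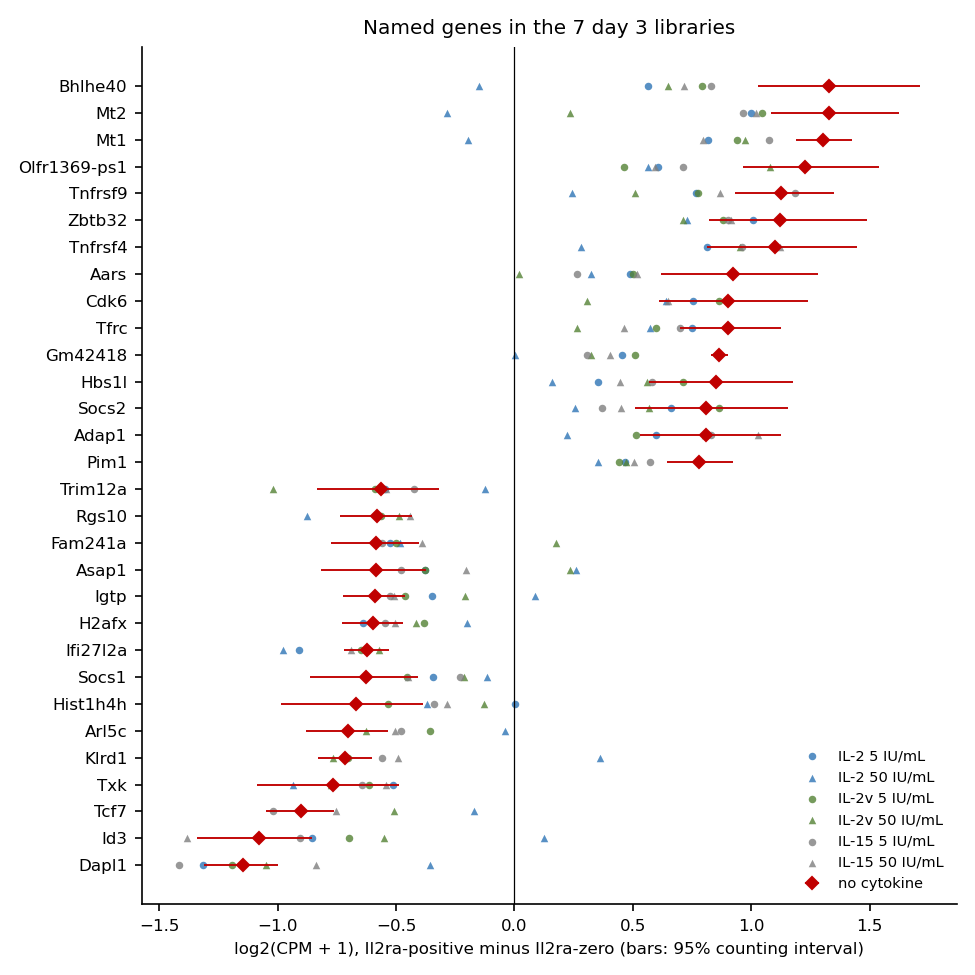
Difference between Il2ra-positive and Il2ra-zero cells (log2(CPM + 1), horizontal axis) for the 30 named genes in the 7 day 3 libraries. Red diamonds with 95% counting intervals are the library without cytokine, and circles and triangles the cytokines at 5 and 50 IU/mL. Zbtb32 and Pim1 stay above 0.3 in every library, while Bhlhe40, Mt1 and Mt2 fall below 0 with 50 IU/mL IL-2. The ratio interval of Bhlhe40 there, which is not drawn, includes 1.

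The receptor's other chains and its signalling parts differed little. Il2rb was at 384 CPM in positive and 339 CPM in zero cells (0.18), and above 0 in all of the other 6 libraries, 0.25 ± 0.04 (SD, n = 6, edgeR adjusted p = 3.51e-05). Il2rg was at 162 and 192 CPM (-0.24), and below 0 in all 6, -0.15 ± 0.12 (SD, n = 6, edgeR adjusted p = 3.12e-06). Il7r, the receptor chain for IL-7, was at 151 and 113 CPM (0.41). Of 12 members tested 0 were 1.5-fold apart without cytokine, with a median of 0.04. The other libraries gave 3 calls in each direction, near the shares over all genes (19.4% and 20.8%). With library totals in place of TMM they gave 5 higher and 1 lower. The counts were 2 higher and 5 lower without matching on UMIs, and 2 and 4 when matched on UMIs and Gm42418 share. Il2 itself was at 2.05 and 1.38 CPM, which is 9 UMIs in the positive cells and too few to compare.

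T cell receptor response genes come next. Icos (0.55), Dusp5 (0.58) and Irf4 (0.45) were higher without cytokine and were called higher in the other libraries, next to Tnfrsf9. Nfatc1 (-0.34), Rel (-0.11) and Batf (-0.03) were lower or near 0. Only Tnfrsf9 of the 17 tested was past 1.5-fold, and the median was 0.26. Of the immediate early genes, Fos (0.457 and 1.15 CPM) and Egr1 (3.20 and 2.54 CPM) were low in both classes, while Junb was at 117 and 107 CPM (0.13) and Jun at 30.4 and 28.4 CPM (0.10). In the other libraries 8 of 18 were called higher and 4 lower, or 7 and 1 with DESeq2, against 19.4% and 20.8% of all genes.

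Genes of amino acid uptake and the ATF4 response, which supply growing cells, are described next with the iron receptor Tfrc. Slc7a5, the light chain of the large neutral amino acid transporter, was at 42.9 CPM in positive and 15.9 CPM in zero cells (1.38), and above 0 in all of the other 6 libraries, 0.85 ± 0.39. Its partner Slc3a2 was at 64.6 and 50.7 CPM (0.34). Tfrc, the transferrin receptor for iron uptake, was at 120 and 63.9 CPM (0.90), with 0.56 ± 0.17 in the others (SD, n = 6, edgeR adjusted p = 4.87e-10). Of the amino acid uptake and ATF4 list, 6 of 15 were higher and 0 lower, with a median of 0.52, and in the other libraries 14 of 18 were called higher and 1, Psph, lower. Aars, an alanyl-tRNA synthetase among these (0.92), shares its 3′ end with Exosc6, so its count is uncertain.

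Of 24 ribosome biogenesis genes, 4 were past 1.5-fold upward and 0 downward, with a median of 0.41. Rrp1b (1.01), Nop2 (0.87) and Ppan (0.84) had the largest differences, and nucleolin (Ncl) was at 892 against 660 CPM (0.43). The other libraries gave 19 of 29 called higher and 2 lower. Ribosomal protein transcripts themselves took the smaller share of UMIs given above. Glycolysis and hypoxia genes had a median of 0.24 with 2 of 26 higher, Hk2 (0.78) and Ero1l (0.62), and sterol and fatty acid synthesis genes a median of 0.27 with 2 of 28 higher, Scd1 (0.73) among them. For these lists the other libraries gave 13 of 27 called higher and 3 lower, and 13 of 29 higher and 2 lower, against 19.4% and 20.8% of all genes. With DESeq2 the higher calls were 10 and 9, and with library totals in place of TMM glycolysis and hypoxia genes gave 21 higher and 0 lower.

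**Figure D4:**
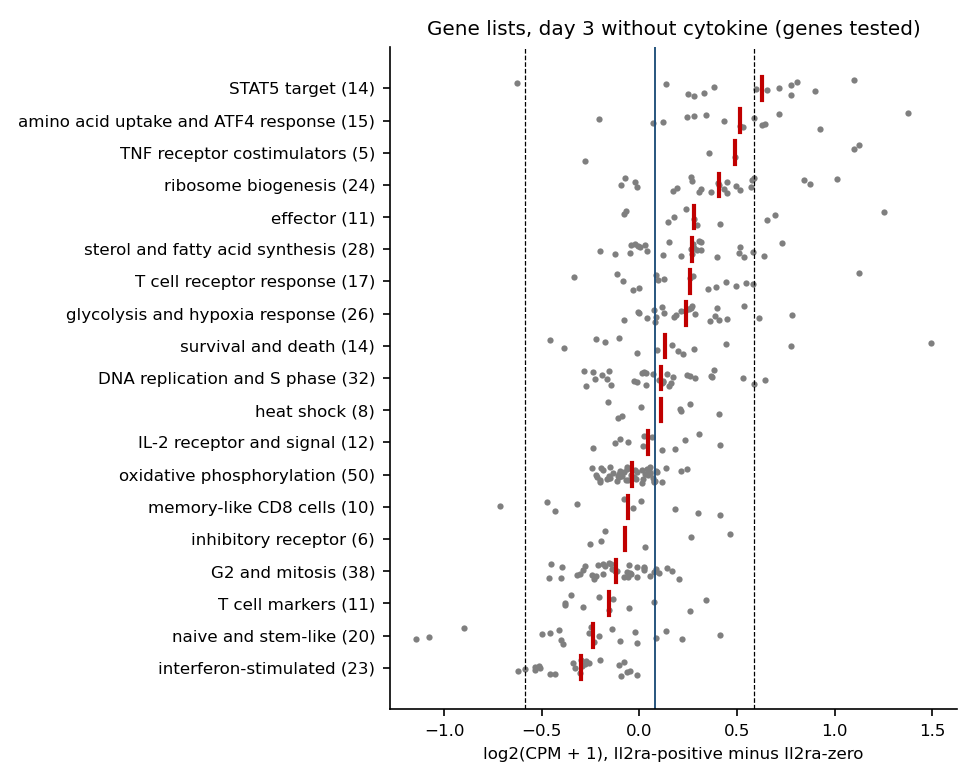
Difference between Il2ra-positive and Il2ra-zero cells of day 3 without cytokine (log2(CPM + 1), horizontal axis) for each tested member of the gene lists with at least 5 tested genes (grey points, 1 gene each; number in brackets). Red bars are list medians, the blue line the median of all genes and dashed lines 1.5-fold; the STAT5 target median is 0.63 and the interferon-stimulated median -0.30.

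The 3 lowest named genes belong to the list of naive and stem-like T cells. Dapl1, a gene of naive and memory precursor T cells, was at 112 CPM in positive and 249 CPM in zero cells (-1.15), and below 0 in all of the other 6 libraries, -1.03 ± 0.39 (SD, n = 6, edgeR adjusted p = 4.29e-19). Tcf7, which encodes the stemness factor TCF1, was at 142 and 266 CPM (-0.90), with -0.71 ± 0.32 in the others (SD, n = 6, edgeR adjusted p = 4.78e-17). Id3, an inhibitor of E proteins that is high in naive and memory precursors, was at 47.3 and 101 CPM (-1.08), and lower in 5 of 6 other libraries. In the naive library Dapl1 was at 630 CPM, Tcf7 at 471 CPM and Id3 at 122 CPM over all cells. The homing genes Klf2 (-0.50) and Ccr7 (-0.40) were lower without reaching 1.5-fold, while Satb1 (0.14), Foxo1 (0.22) and Il7r (0.41) were above 0. In cells thinned to 2000 UMIs without matching these turned to -0.031 for Satb1, -0.086 for Foxo1 and -0.055 for Il7r. Of 20 members tested 3 were past 1.5-fold, all lower, with a median of -0.24, and in the other libraries 14 were called lower and 3 higher.

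Interferon-stimulated genes were lower as a list. All 23 members tested were below 0 without cytokine, with a median of -0.30, although only Ifi27l2a and Igtp passed 1.5-fold. Stat2, Xaf1, Ifi35, Gbp7, Ddx58 and Bst2 rose above 0 under at least 1 alternative setting, Stat2 the most, to 0.29. The list median stayed between -0.44 and -0.21. Ifi27l2a was at 330 CPM in positive and 509 CPM in zero cells (-0.62), and below 0 in all of the other 6 libraries, -0.74 ± 0.16 (SD, n = 6, edgeR adjusted p = 4.29e-19). Ifi47, an interferon-induced GTPase, was at 111 and 162 CPM (-0.54). The other libraries gave 19 of 22 called lower and 0 higher.

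T cell markers and the remaining receptor genes follow. Klrd1, which encodes the NK receptor CD94 found on CD8 cells, was at 230 CPM in positive and 377 CPM in zero cells (-0.71), and lower in 5 of 6 other libraries, -0.48 ± 0.42 (SD, n = 6, edgeR adjusted p = 6.42e-15). Cd8a was at 276 and 359 CPM (-0.38) and Cd8b1 at 575 and 748 CPM (-0.38), whereas Thy1 was at 527 and 416 CPM (0.34). Of 11 T cell markers 0 were 1.5-fold apart, the median was -0.16, and the other libraries gave 8 called lower and 1 higher. Txk, a T cell kinase of the Tec family (-0.77), and Rgs10, a brake on G protein signals (-0.58), were lower in all of the other 6 libraries. Asap1 was at 64.6 and 97.5 CPM (-0.59), but lower in 4 of 6 other libraries, where edgeR gave an adjusted p of 1.19e-05 and limma one of 0.0567.

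Cell cycle genes depended on the matching. With cells matched on UMIs, 0 of 38 genes of G2 and mitosis were 1.5-fold apart without cytokine, with a median of -0.12, and 28 of 37 were called lower and 0 higher in the other libraries. Without matching on UMIs, the other libraries gave 0 called lower and 18 higher. S phase genes had a median of 0.11, and Cdc6 (0.59) and E2f1 (0.64) passed 1.5-fold. Cdkn1a, which encodes the cycle inhibitor p21, was at 27.2 against 8.99 CPM (1.495), and higher in 5 of 6 other libraries. Oxidative phosphorylation genes had a median of -0.04 with 0 of 50 past 1.5-fold.

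The counts of the other lists are to be read against all genes, of which 3.07% were past 1.5-fold upward and 0.461% downward without cytokine, and 19.4% were called higher and 20.8% lower in the other libraries. In those libraries the lower heat shock calls and the higher memory-like calls were near these shares. Of 11 effector genes tested 3 were higher, Prdm1, Gzmb and Lgals3 (0.70), with a median of 0.28, and in the other libraries 5 of 10 were called higher and 1, Nkg7, lower. Of 14 genes of survival and death 2 were higher, Cdkn1a and Bcl2l1, with a median of 0.13. The other libraries gave 5 of 13 higher and 4 lower, or 4 and 1 with DESeq2 and 3 and 5 without matching on UMIs. The 6 inhibitory receptor genes tested had a median of -0.07 without any past 1.5-fold, although Lag3 (0.47) and Ctla4 (0.26) were called higher in the other libraries, where 2 of 6 were called higher and 2 lower. Of the regulatory T cell list, the 4 members tested (Ikzf2, Ctla4, Capg and Tnfrsf18) had a median of 0.29, and all 4 were called higher in the others, while Foxp3 was near 0 as given above. Among 10 genes of memory-like CD8 cells Klrd1 was past 1.5-fold, the median was -0.06, and the others gave 6 called lower, Ly6a (-0.47) and Cxcr3 (-0.43) among them, and 2 higher. The 8 heat shock genes tested had a median of 0.11, with 5 of 9 called higher and 2 lower in the others. The 1 myeloid gene and the 1 NK and innate lymphoid gene tested in the others were called higher, or 0 of each with DESeq2. The 1 B cell gene tested there was not called. Of 3 metallothionein and zinc genes tested Mt1 and Mt2 were past 1.5-fold, and all 4 tested in the others were called higher, or 2 of 4 with DESeq2 and 3 of 4 with cells matched on UMIs and on Mki67 or Top2a. S phase genes gave 8 of 34 called higher and 7 lower there, but 20 and 1 without matching on UMIs and 15 and 2 with library totals in place of TMM. Oxidative phosphorylation genes gave 2 of 50 higher and 26 lower, or 9 and 21 with library totals. The medians of the receptor, S phase, mitosis, oxidative phosphorylation, inhibitory receptor, heat shock and survival lists changed sign under at least 1 alternative setting. Of the list members given with a value, Satb1, Foxo1, Il7r, Junb, Jun, Nfatc1, Rel, Batf and Ikzf2 changed sign without cytokine under at least 1 of the 18 alternatives. Some list members given with a value past 1.5-fold, and not among the 30 named genes, were under 1.5-fold in at least 1 alternative. They were Bcl2l1, Cdc6, E2f1, Ero1l, Gzmb, Lgals3, Myc, Nfil3, Nop2, Ppan, Scd1 and Slc7a5. For example, E2f1 was at 0.22 when matched on genes per cell and Slc7a5 at 0.41 where neither Mki67 nor Top2a had a UMI. Members without a printed value were left out of this list.

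The named genes were also described by the Il2ra count of the cell, which is the measure that chose the cells. Just outside the threshold, cells with 1 Il2ra UMI formed 1196 pairs with matched zero cells, and 19 genes were higher and 4 lower by 1.5-fold. Just inside, cells with 2 formed 444 pairs, with 175 higher and 44 lower. Fewer pairs give wider counting error, so counts of genes are not comparable between classes of unlike size and the named genes are given instead. The zero cells of every class come from the same 2507 cells, so the classes share controls and their signs are not compared. The size of the difference followed the order of the 4 classes in 8 of the 15 higher and 6 of the 15 lower genes, and it is given as a description, since genes named from cells with 2 or more UMIs are favoured to differ more there than at 1. Bhlhe40 differed by 0.67 at 1 UMI, 1.17 at 2, 1.60 at 3 and 1.71 at 4 or more. Mt1 differed by 0.55, 0.79, 1.58 and 1.71 over the same classes, and Tcf7 by -0.34, -0.66, -0.95 and -1.41. Dapl1 and Socs1 were lowest at 3 UMIs, with -1.85 and -1.18.

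**Figure D5:**
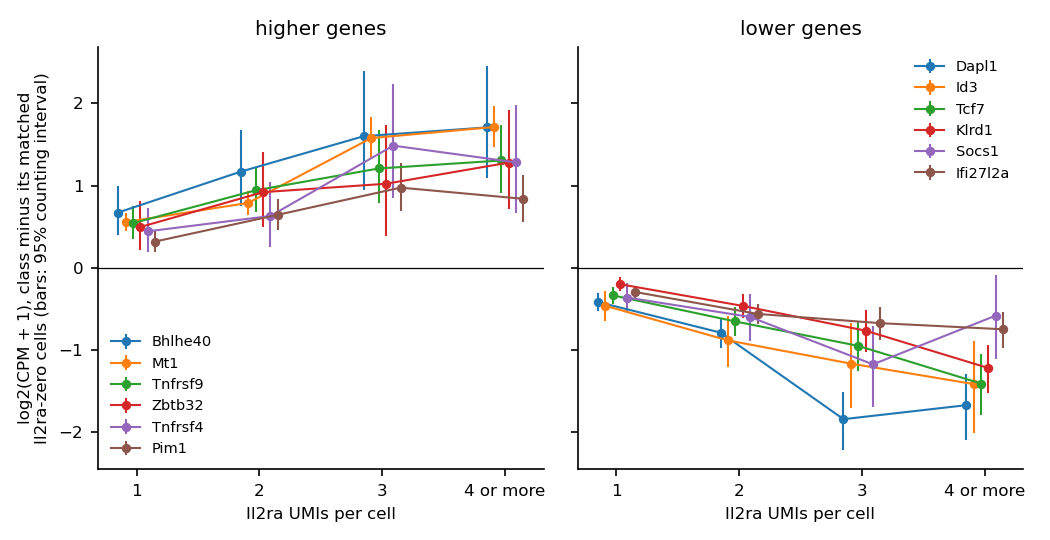
Difference from matched Il2ra-zero cells (log2(CPM + 1), vertical axis) for 6 higher genes (left) and 6 lower genes (right) in cells with 1, 2, 3 or at least 4 Il2ra UMIs, with 95% counting intervals. Bhlhe40 goes from 0.67 at 1 UMI to 1.71 at 4 or more, and Tcf7 from -0.34 to -1.41.

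Among the other 6 day 3 libraries, the one with 50 IU/mL IL-2 had the smallest or an opposite difference for 10 of the 15 higher and 10 of the 15 lower named genes. The library without cytokine is not ranked with them, since the genes were named from it. The library with 50 IU/mL IL-2 had 330 zero cells of 3471, and 324 of them were paired, the fewest of the 7. These 324 zero cells had Bhlhe40 at 300.3 CPM, Mt1 at 773 CPM and Tnfrsf9 at 412 CPM, against 271, 675 and 487 CPM in the 324 positive cells paired with them. Id3 was at 35.7 CPM in those positive and 32.6 CPM in those zero cells. Ratio intervals in this library left out 1 for Mt1 (0.795 to 0.958), Mt2 (0.684 to 0.984) and Tnfrsf9 (1.05 to 1.33). Those of Bhlhe40 (0.777 to 1.05), Id3 (0.700 to 1.715), Klrd1 (0.894 to 1.88), Igtp (0.864 to 1.31) and Asap1 (0.700 to 2.10) included 1. The opposite signs of these last genes are therefore within counting error. The difference between libraries was not tested.

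On day 5 without cytokine only 110 pairs could be formed. Of the named genes, 12 of the 15 higher and 7 of the 15 lower had the same sign as on day 3. Tnfrsf9 differed by 1.85 (ratio interval 1.29 to 16.4), Tfrc by 1.36 (1.20 to 6.52) and Socs2 by 1.42 (1.07 to 8.78). Zbtb32 differed by 1.17 and Bhlhe40 by 1.03 with intervals that include 1 (0.241 to 157 and 0.869 to 5.69), and so does that of Olfr1369-ps1 (-2.25, 0.00317 to 1.11), while Id3 (0.01), Klrd1 (-0.03) and Tcf7 (-0.11) were near 0. The naive library (14 pairs) and day 10 with 5 IU/mL IL-15 (49 pairs) gave too few pairs. The 18 other libraries with at least 50 pairs cover days 3, 5 and 10. They mix cultures with IL-2, IL-2v or IL-15 and the day 5 culture without cytokine. Over these, Cdk6, Socs2 and Pim1 were higher in 18 of 18 and Rgs10 lower in 18 of 18. None of the other named genes kept its sign in all of them. Txk and Igtp were lower in 7 of 18, Asap1 in 6 of 18 and Fam241a in 10 of 18.

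The remaining named genes need care or are less studied in these cells. Hbs1l (0.85), a ribosome rescue factor, and Adap1 (0.81) were higher in all of the other 6 libraries. Gm42418 (0.87), whose exon is covered by a gene on the opposite strand over 99.5% of its bases, and Olfr1369-ps1 (1.23), which shares 15.5% of its sequence words with another gene, are uncertain. Arl5c (-0.70), H2afx (-0.60), which encodes a histone variant of the DNA damage response, Fam241a (-0.58) and Trim12a (-0.56) were lower, although H2afx was at -0.051 in cells thinned to 2000 UMIs without matching. Hist1h4h (-0.67) shares 50.0% of its words with other histone genes and is uncertain.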

How the data were processed

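RNA was measured in single cells, 1 library per condition. The authors deposited raw counts of UMIs per gene and cell, 17516 symbols per table. Per the submitters' processing notes, mm10, Cell Ranger and Seurat (versions 3.0.2 and 4.0.1) were used; doublet removal is not given in the sources used here. Kept cells had at least 1000 UMIs, at least 500 genes and no more than 10% mitochondrial UMIs (3250 to 7105 per library, 10589950 to 32648496 UMIs, median depth 3016 to 5065); 1 cell was removed from the day 3 library without cytokine, which held 22249358 UMIs. It shared 2 to 15 cell barcodes with each other library.

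Positive and zero cells were paired to the nearest UMI total within 5%. Ratios had exact conditional binomial 95% intervals. Libraries with at least 50 pairs were used. The 15 highest and 15 lowest genes that reached 50 CPM in either class and whose interval left out 1 were named, together with members of 25 lists; the next gene was Rbpj (0.74) or Hmgn2 (-0.55). edgeR 4.0.16 (quasi-likelihood, TMM, Benjamini-Hochberg) tested the other 6 day 3 libraries; mean ± SD used library totals without TMM. On simulated sums edgeR called 100 of 100 genes changed 1.5-fold, 100 of 100 changed 2-fold and 10 of 5560 unchanged. The simulated libraries shared a single mean profile and dispersion, had the same change in each, and had few changed genes. The simulation therefore gives no error rate for differences that vary between libraries, as they do here. DESeq2 1.42.0 and limma 3.58.1 were alternatives. The cells, lists and tests were chosen with earlier results of these data known. Gene positions are from GENCODE vM21 and sequences from RefSeq. Results of some items are not reported here, but counts and medians of lists include them.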

Additional observations from a re-analysis of the deposited data

How the results depend on the processing

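Counts of genes at least 1.5-fold apart (173 higher and 26 lower) moved with the setting. They were 335 and 103 after thinning to 2000 UMIs without matching, 27 and 7 with at least 1 Il2ra UMI, and 479 and 96 with at least 3. They were 73 and 78 with TMM, 57 and 11 with a pseudocount of 10, and 1063 and 298 with no filter on level. Without cells over 2 times the median UMIs, as possible doublets, they were 263 and 54. Where neither Mki67 nor Top2a had a UMI (215 pairs) they were 609 and 217. Lower genes also numbered 44 without matching, 66 with totals that leave out ribosomal protein and mitochondrial genes, 44 with the mean CPM of single cells and 59 at no more than 5% mitochondrial UMIs. The cause was not tested.

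In the other 6 day 3 libraries, 600 genes were higher and 788 lower with DESeq2, 2144 and 737 without TMM, and 7 and 1 without the library block; leaving out 1 library gave 927 to 1189 higher and 1053 to 1243 lower. The share of 16.9% became 4.78% and 1.44% when thinned to 2000 and 1000 UMIs, 15.1% without cells over 2 times the median UMIs, 43.7% with at least 1 Il2ra UMI and 6.91% with at least 3.

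Hist1h4h reversed to 0.58 in those same cells without cycle UMIs, and Gm42418 to -0.038 (edgeR adjusted p = 0.286) in the other 6 libraries without matching. Of 540 values of the 30 named genes under the alternatives, 539 kept their sign and 450 were past 1.5-fold. Depth limits genes under 20 CPM, such as Il2 and Cish.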
